A study of Arabidopsis thaliana with 21 samples.

Results

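*EXPA8* (AT2G40610), *XTH19* (AT4G30290), *XTH20* (AT5G48070) and *CSLA01* (AT4G16590) are 4 genes of *Arabidopsis thaliana* whose products loosen, remodel or make polymers of the growing cell wall. They were chosen by the large differences of their transcript levels in these same arrays during deacclimation, so their levels and differences are given as a description, with no test. Each was read from 1 probe set, and the 4 probe sets were found among 31329 analysed on every array. All plants were of the accession Col-0, raised for 4 weeks in a greenhouse (day 20 °C, night 18 °C, light of 200 μmol m-2 s-1 or more). Cold acclimated plants then spent 3 d at 4 °C and 90 μmol m-2 s-1. Deacclimated plants came from the same cold treatment and were harvested 2, 4, 6, 12 or 24 h after return to the greenhouse. Non-acclimated (NA) plants had no cold treatment. Cold acclimated plants thus differed from NA plants in both temperature and light, which cannot be told apart in that comparison. Each of the 7 groups had 3 biological replicates, and every replicate was a pool of 10 whole rosettes hybridized to 1 array, giving 21 arrays. The return was to warmer air and to brighter light at once, and the paper places it in the morning and the sampling in daylight without giving hours, so warming, light and time of day cannot be told apart.

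A plant cell enlarges when its wall of cellulose and hemicelluloses yields to turgor. Expansins are wall proteins without known hydrolytic activity that loosen the contacts between cellulose microfibrils and hemicelluloses, and *EXPA8* encodes an alpha-expansin. Xyloglucan endotransglucosylase/hydrolases (XTHs) cut xyloglucan, the main hemicellulose of the primary wall in Arabidopsis, and join the cut end to another xyloglucan chain or to water. *XTH19* and *XTH20* belong to a group of closely related genes that also holds *XTH17* and *XTH18*. Cellulose synthase-like A (CSLA) proteins are Golgi glycosyltransferases that make the backbone of mannans and glucomannans. *CSLA01* is placed in this family by its sequence, while the enzyme activity is best known for other members such as *CSLA09*.

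A level here is the log2 expression of a probe set, and a difference of 1 is a 2-fold change. Array medians lay between 8.11 and 8.28 on 20 of the arrays and at 8.43 on that of replicate 1 at 2 h, and arrays of the same group correlated with each other at 0.984 or more. Of the leaf markers only *RCA* (rubisco activase) had a named probe set, with a mean level between 12.44 and 12.65 at 2 to 24 h, against 12.33 in cold acclimated plants and 12.57 in NA plants. Of 11 root markers 2 were named, the root hair expansins *EXPA7* and *EXPA18*, and neither passed the test in any comparison with cold acclimated plants. No flower marker had a named probe set. In whole rosettes, fewer cells of a type and less RNA per cell cannot be told apart.

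The 4 genes followed 4 different courses. *EXPA8* was highest in the middle of deacclimation, *CSLA01* was higher at every time after the transfer than in the cold, *XTH19* overlapped its cold level until 12 h and was higher at 24 h, and *XTH20* had its highest levels in the cold and at 2 h. In NA plants *XTH19* and *CSLA01* were high, *XTH20* was at the bottom of the array's range and *EXPA8* was at a moderate level.

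**Figure D1:**
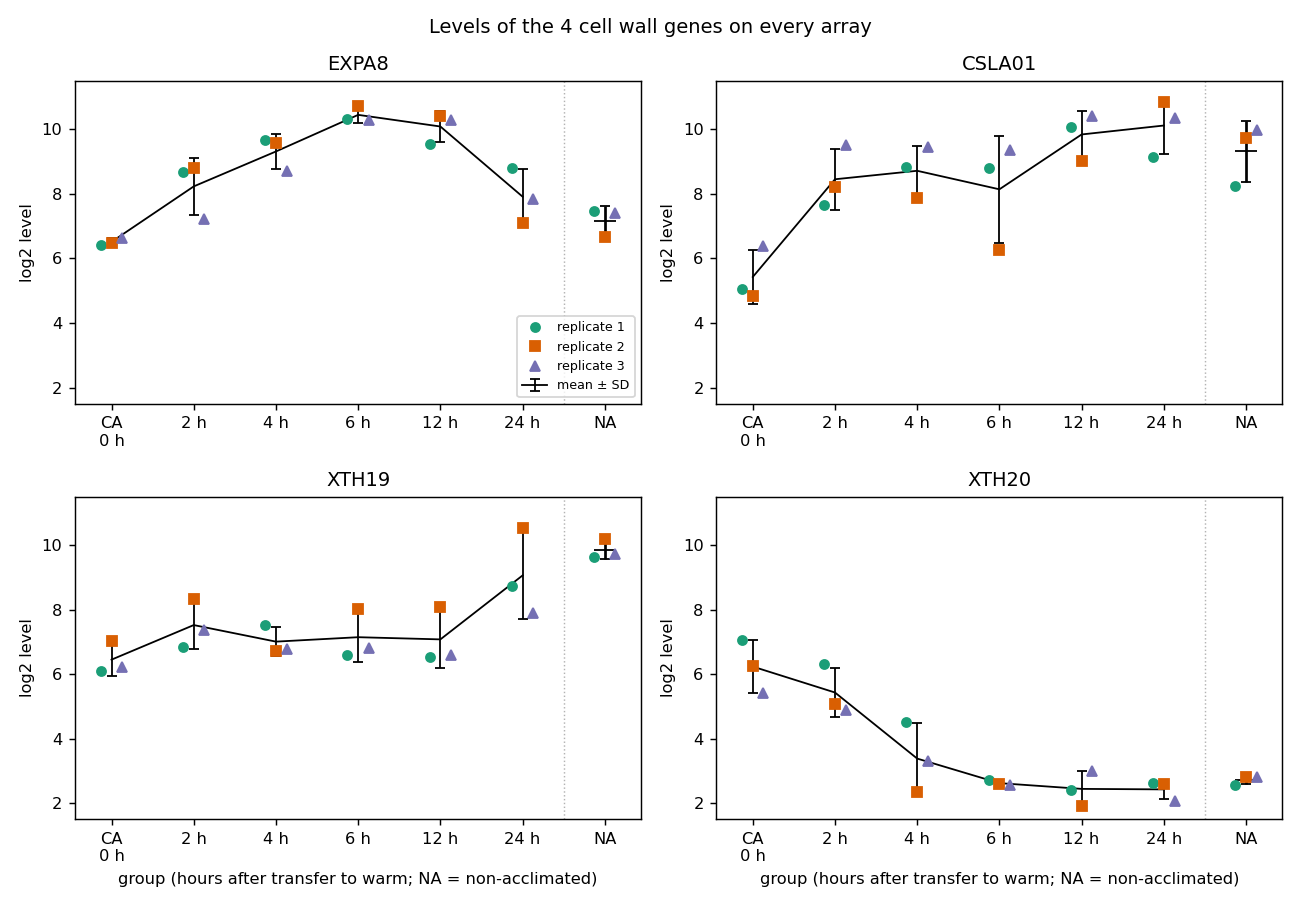
Log2 level of EXPA8, CSLA01, XTH19 and XTH20 on each of 21 arrays. The x axis gives cold acclimated plants (CA, 0 h), the times after transfer to the warm and, right of the dotted line, non-acclimated plants (NA). Symbols are replicates 1 to 3, and lines and bars are group means and SD (n = 3). EXPA8 is highest at 6 h and 12 h, CSLA01 at 12 h and 24 h, XTH19 in NA plants and XTH20 in CA plants.

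The *EXPA8* level was 6.41, 6.49 and 6.64 in replicates 1 to 3 of cold acclimated plants. After transfer it was 8.68, 8.79 and 7.23 (2 h), then 9.68, 9.57 and 8.70 (4 h), 10.32, 10.73 and 10.31 (6 h), 9.55, 10.43 and 10.30 (12 h), and 8.82, 7.10 and 7.83 (24 h). In NA plants it was 7.47, 6.65 and 7.40. Each array of every deacclimated group lay above all 3 arrays of cold acclimated plants. The cold acclimated arrays were the most alike, with an SD of 0.12, whereas the SD was 0.87 at 2 h and 0.86 at 24 h.

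At 6 h the log2 difference of *EXPA8* from cold acclimated plants was 3.94 ± 0.43 (SE of the fit), a 15.3-fold higher level and the 3rd largest increase among all analysed probe sets. With the same SE, the group of 2 h stood 1.72 above the cold, that of 4 h 2.80, that of 12 h 3.58 and that of 24 h 1.40. The means at 6 h and 12 h, 10.45 ± 0.24 and 10.09 ± 0.47 (SD, n = 3 each), overlapped. The mean at 24 h differed from that at 12 h by -2.17, and the arrays of the 2 times were apart. At 2 h replicate 3 lagged, at 0.58 above its numbered partner from the cold, against 2.27 and 2.30 in replicates 1 and 2.

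Between cold acclimated and NA plants the difference was small. *EXPA8* averaged 6.51 ± 0.12 in cold acclimated plants and 7.17 ± 0.45 in NA plants (SD, n = 3 each), a difference of -0.66 ± 0.43 (SE), and the 2 groups missed overlap by 0.01. At 6 h its mean lay 3.28 above that of NA plants and at 12 h 2.92 above, with no overlap. At 24 h the mean was still 0.74 ± 0.43 (SE) above, but the groups overlapped. At 4, 6 and 12 h all arrays lay above those of plants that had never been cold, and the mean percentile among the probe sets of an array was 79.4 at 6 h, against 41.0 in NA plants.

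Among its relatives, 23 other expansin genes had a named probe set, of 36 expansin and expansin-like genes listed. In limma none passed the test at 2 h or 4 h, with 2 and 3 at an unadjusted p under 0.05. *EXPA11*, another alpha-expansin, rose at 6 h by 1.28 (limma adjusted p = 0.000368). Its level at 6 h was 10.55, 11.14 and 10.91, against 9.48, 9.63 and 9.63 in cold acclimated plants, and it was also higher than in NA plants (9.59, 9.41 and 9.60). Over the 21 arrays its level had a Pearson r of 0.90 with that of *EXPA8*, the highest among the 23. *EXPA11* was named only through the study's table of changed transcripts, so it was in the list because it had been called there.

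*EXPA9*, an alpha-expansin too, moved the other way. It fell by 1.38 at 12 h (limma adjusted p = 0.000709) and by 1.38 at 24 h (limma adjusted p = 0.000774), and it was higher in cold acclimated than in NA plants by 1.04 (limma adjusted p = 0.00731). Its level was 8.48, 7.84 and 7.86 at 12 h and 8.38, 7.63 and 8.19 at 24 h, against 9.50, 9.45 and 9.37 in cold acclimated plants. In NA plants it was 9.0, 8.27 and 7.94. The difference between cold acclimated and NA plants fell under the threshold of 1 without NA replicate 2 (0.97) and without NA replicate 3 (0.81).

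*EXLA2*, an expansin-like A gene for whose product no wall loosening is established, fell by 2.50 at 12 h (limma adjusted p = 0.00293). Its level was 7.15, 7.45 and 6.67 at 12 h, against 9.65, 9.65 and 9.46 in cold acclimated plants. The other 20 expansin genes were not called at any of the 5 times. At 6 h, 1 of 23 rose and 0 fell, with a median difference of -0.08. Over all analysed probe sets 4.17% rose and 3.56% fell at this time, with a median of 0.03. At 12 h 0 of 23 rose and 2 fell, with a median of 0.06, and over all probe sets 4.41% rose and 4.76% fell, with a median of 0.01.

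The *XTH19* level was 6.10, 7.03 and 6.21 in replicates 1 to 3 of cold acclimated plants. After transfer it was 6.84, 8.33 and 7.38 (2 h), then 7.52, 6.71 and 6.78 (4 h), 6.60, 8.02 and 6.81 (6 h), 6.54, 8.09 and 6.60 (12 h), and 8.74, 10.54 and 7.90 (24 h). In NA plants it was 9.64, 10.19 and 9.73. From 2 h to 12 h each group overlapped cold acclimated plants and lay below all NA arrays. Taken by replicate number, which the labels do not state to be pairs, the level was above that of the cold by 0.74, 1.3 and 1.18 at 2 h, by 0.50, 0.98 and 0.60 at 6 h and by 0.44, 1.05 and 0.39 at 12 h, whereas at 4 h replicate 2 lay below (-0.32). The mean at 2 h was 1.07 higher than in the cold, and the overlap there involved replicate 2 of the cold, at 7.03. Only the group at 24 h was apart from cold acclimated plants, by 0.86, and it overlapped NA plants.

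*XTH19* averaged 6.45 ± 0.51 in cold acclimated plants and 9.86 ± 0.30 in NA plants (SD, n = 3 each), a difference of -3.41 ± 0.59 (SE), or 10.6-fold lower in the cold. Against NA plants the difference lay between -2.85 and -2.34 from 2 h to 12 h, and was -0.80 ± 0.59 (SE) at 24 h. Without replicate 2 at 24 h it was -1.54, and the other 2 arrays of that time lay below all NA arrays, so the overlap with NA plants rested on that array. The step between 12 h and 24 h was 2.19 in replicate 1, 2.45 in replicate 2 and 1.3 in replicate 3. Against cold acclimated plants the mean at 24 h was 2.61 higher, and 1.87 higher without replicate 2, the highest array of that time. The mean step from 12 h, 1.98, was 1.24 without it.

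Replicates of *XTH19* differed in a regular way. Replicate 2 was the highest array in 6 of 7 groups, the exception being 4 h, where it was the lowest. Its mean deviation from the group means was 0.69, against -0.30 for replicate 1 and -0.39 for replicate 3. Whether same-numbered pools shared a harvest or a batch is not stated in the labels. The paper describes 3 independent experiments, without saying which array number belongs to which.

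*XTH20* differed in the opposite direction between cold acclimated and NA plants. Its level was 7.05, 6.25 and 5.40 in cold acclimated plants and 6.31, 5.08 and 4.89 at 2 h. Later it was 4.51, 2.33 and 3.30 (4 h), then 2.72, 2.59 and 2.55 (6 h), 2.41, 1.92 and 3.00 (12 h), and 2.62, 2.59 and 2.07 (24 h). In NA plants it was 2.56, 2.81 and 2.81. The group at 2 h overlapped cold acclimated plants, the group at 4 h no longer did, and the groups from 4 h on overlapped NA plants.

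The mean of *XTH20* was 6.23 ± 0.82 in cold acclimated plants and 2.73 ± 0.14 in NA plants (SD, n = 3 each), a difference of 3.50 ± 0.48 (SE), or 11.3-fold higher in the cold. Against cold acclimated plants the difference was -0.80 at 2 h, -2.85 at 4 h and -3.61 at 6 h, with little further change at 12 h (-3.79) and 24 h (-3.81), always with an SE of 0.48. Replicate 1 at 4 h, at 4.51, still stood 1.95 above replicate 1 of NA plants, the lowest NA array (2.56), while replicate 2 had reached 2.33. Differences among 6 h, 12 h, 24 h and NA plants were at most 0.30 and these groups overlapped each other.

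These low levels lie at the floor of the measurement. On all 3 arrays of the 6 h, 12 h, 24 h and NA groups *XTH20* was below the 5th percentile of the analysed probe sets, a percentile that lay between 2.93 and 3.23 over the 21 arrays. In cold acclimated plants its percentile was 29.1 to 40.1. The files hold no detection call, so whether the low arrays had any transcript above background could not be read from them, and the size of the fold change depends on that floor. A filter on mean level over the 21 arrays, set at 4.98, passes 3 of the 4 genes and not *XTH20*, whose mean was 3.61.

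Next to *XTH19* on the chromosome lies *XTH18*, in the RefSeq gene order. It was named here after its values were seen. Its level was 6.27, 7.05 and 6.25 in cold acclimated plants, against 7.01, 10.86 and 10.64 in NA plants, a difference of -2.98 that did not pass the test (limma adjusted p = 0.0811). At 24 h it was 5.24, 10.39 and 5.89, and at 2 h 8.49, 5.82 and 10.00. The NA arrays of *XTH18* were thus wider apart than those of *XTH19*, which had a range of 0.55, while at 24 h replicate 2 was the highest array of both genes. Over the 21 arrays *XTH18* and *XTH19* had an r of 0.52, and the files do not show which probes make up a set, so shared hybridization between these relatives was not tested.

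Counting *XTH18*, 10 neighbours of the 4 genes, up to 2 genes away on each side, had a named probe set. In limma 0 of 10 were called at any of the 5 times against cold acclimated plants, where 18 of 50 values had an unadjusted p under 0.05 and where 4.48% (2 h) to 9.17% (12 h) of all analysed probe sets were called. Between cold acclimated and NA plants 0 of 10 were called too, with 3 at an unadjusted p under 0.05, beside 7.9% of all. Of the deacclimated groups against NA plants, 2 h had 1 of 10 called, beside 4.5% of all. At 4, 6, 12 and 24 h 0 of 10 were called, with 3, 3, 4 and 1 at an unadjusted p under 0.05. The shares of all were 5.08%, 6.58%, 4.6% and 0.0447% at these times. The neighbours differed from cold acclimated plants by -0.75 (24 h) to 1.58 (2 h, *XTH18*). In cold acclimated minus NA plants their differences lay between -2.98 (*XTH18*) and 0.43. Some differences under the cut of 1 had a low adjusted p. AT4G16580, next to *CSLA01*, stood 0.63 above the cold at 24 h (limma adjusted p = 1.87e-05). In cold acclimated minus NA plants it differed by -0.82 (limma adjusted p = 1.98e-06), both in the direction of *CSLA01*. AT2G40620, next to *EXPA8*, went against that gene at 24 h (-0.75, limma adjusted p = 0.00344).

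Of 33 *XTH* genes listed, 9 besides *XTH19* and *XTH20* had a named probe set. *XTH33*, which encodes an XTH with a membrane anchor, fell by 4.02 at 12 h (limma adjusted p = 0.0105). Its level was 4.75, 5.21 and 5.30 at 12 h, against 8.46, 9.46 and 9.40 in cold acclimated plants. At 24 h it was 4.65, 8.03 and 4.53, a difference of -3.37 in the mean (limma adjusted p = 0.0295), and all 3 arrays lay below those of the cold. Leaving out replicate 2 or 3 of cold acclimated plants, or replicate 1 or 3 at 24 h, ended this call, with an adjusted p of up to 0.124.

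In NA plants *XTH33* was 5.40, 10.43 and 9.97, so cold acclimated plants, in the middle of that range, did not differ detectably from them (0.50 ± 1.12 SE, limma adjusted p = 0.796). *XTH8* fell by 1.22 at 24 h (limma adjusted p = 0.00172), with levels of 8.27, 8.29 and 7.50, against 9.28, 9.31 and 9.12 in cold acclimated plants. Without replicate 3 at 24 h its decrease was under 1. Like *EXPA11* it was named only through the study's table of changed transcripts. The other 7 *XTH* genes were not called at any time against cold acclimated plants. At 12 h 1 of 9 fell, beside 4.76% of all analysed probe sets, and at 24 h 2 of 9, beside 4.37%. *XTH32*, named here after its values were seen, changed by less than the cut of 1. It differed from the cold by -0.56 at 6 h (limma adjusted p = 0.00344), -0.49 at 12 h (0.0064) and 0.39 at 24 h (0.0291).

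Among these relatives none moved closely with *XTH20*: the highest r over the 21 arrays was 0.40, with *XTH33*. For *XTH19* it was 0.67, with *XTH21*, whose own changes against cold acclimated plants were not called. The 2 chosen *XTH* genes had an r of -0.40 with each other.

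The *CSLA01* level was 5.05, 4.84 and 6.39 in replicates 1 to 3 of cold acclimated plants. After transfer it was 7.65, 8.21 and 9.51 (2 h), then 8.83, 7.89 and 9.44 (4 h), 8.81, 6.25 and 9.37 (6 h), 10.09, 9.02 and 10.43 (12 h), and 9.16, 10.84 and 10.36 (24 h). In NA plants it was 8.24, 9.75 and 9.97. All groups except that of 6 h were apart from cold acclimated plants. At 6 h replicate 2, at 6.25, lay below replicate 3 of the cold.

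*CSLA01* had the largest span of the 4 genes and the largest spread. At 24 h its mean was 4.69 ± 0.76 (SE) above that of cold acclimated plants, 25.9-fold, the 4th largest increase among all analysed probe sets. Before that it had stood 3.03 (2 h), 3.29 (4 h), 2.72 (6 h) and 4.42 (12 h) above the cold. Much of the change was present at 2 h, the earliest time, when each of 3 replicates stood 2.60 to 3.37 above its numbered partner from the cold. The dip at 6 h rested on replicate 2. Without it the difference from the cold was 3.66, and that from 4 h was 0.37 in place of -0.57.

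Cold acclimated plants had a *CSLA01* mean of 5.43 ± 0.84 and NA plants one of 9.32 ± 0.94 (SD, n = 3 each), a difference of -3.90 ± 0.76 (SE), or 14.9-fold lower in the cold. All deacclimated groups overlapped NA plants. The means at 12 h and 24 h lay 0.52 and 0.80 above that of NA plants, within the spread between replicates, and without NA replicate 1 the first was -0.02. Replicate 3 was the highest array in 6 of 7 groups, with a mean deviation of 0.78.

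Of the 9 *CSLA* genes listed, *CSLA03* was the only other one with a named probe set, and it moved in the same direction with a smaller size. It rose at 4 h by 1.33 (limma adjusted p = 0.00709) and at 6 h by 1.09 (limma adjusted p = 0.0194), and differed by -1.31 in cold acclimated minus NA plants (limma adjusted p = 0.00623). Its level was 7.32, 7.60 and 7.07 at 4 h, against 6.18, 5.90 and 5.92 in cold acclimated plants and 6.42, 7.55 and 7.96 in NA plants. At 12 h and 24 h, where *CSLA01* was highest, *CSLA03* was 0.43 and 0.52 above its cold level and was not called. Over the 21 arrays *CSLA01* and *CSLA03* had an r of 0.29. The call at 6 h ended without replicate 2 or 3 of either group (adjusted p up to 0.0773 or a difference under 1), and that between cold acclimated and NA plants ended without NA replicate 3 (-0.99).

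Few genes that make or trim the polymers on which these proteins act had a named probe set. In the mannan list 3 of 11 genes did, and limma called 0 of 3 against cold acclimated plants at any time, with 5 of 15 values at an unadjusted p under 0.05, beside the same 4.48% to 9.17% of all. *MAN2*, an endo-beta-mannanase, was higher in cold acclimated than in NA plants by 1.05 (limma adjusted p = 0.000158), with levels of 8.60, 8.67 and 8.56, against 7.62, 7.57 and 7.50. Against cold acclimated plants *MAN2* differed by -0.50 at 4 h (limma adjusted p = 0.0361), -0.67 at 12 h (0.00434) and -0.98 at 24 h (0.000229). These differences lay under the cut of 1. In the xyloglucan list 6 of 14 were named. *XYL1*, the alpha-xylosidase that trims xyloglucan, rose at 4 h by 1.01 (limma adjusted p = 0.00145), a value at the threshold that fell under it with arrays centred on their median and without 3 single arrays (replicate 1 of the cold, replicates 2 and 3 at 4 h). It also stood 0.96 above the cold at 6 h (limma adjusted p = 0.00169) and 0.61 at 12 h (0.0274), under the cut of 1. *XYL1* was higher than in NA plants by 1.18 at 4 h (limma adjusted p = 0.000597) and by 1.13 at 6 h (0.000649), the second not without replicate 2 at 6 h. *CSLC08*, named here after its values were seen, stood 0.60 (12 h) to 0.81 (6 h) above the cold at every time. These differences lay under the cut of 1, with a limma adjusted p of 0.00182 or less. In cold acclimated minus NA plants *CSLC08* differed by -0.63 (limma adjusted p = 0.0016). *CSLC12*, of the family that makes the xyloglucan backbone, is also named here after its values were seen. It was lower than in NA plants by 1.09 at 4 h (limma adjusted p = 0.0168), by 1.22 at 6 h (0.00703) and by 1.13 at 12 h (0.0159). These calls of *CSLC12* ended with only the 2 groups compared in the fit. Those of 4 h and 12 h also ended without NA replicate 2 or 3. Single arrays whose removal ended a call were replicate 1 or 2 at 4 h, replicate 3 at 6 h and replicate 3 at 12 h (adjusted p up to 0.0927). Against cold acclimated plants *CSLC12* differed at 4, 6 and 12 h by only -0.12, -0.25 and -0.16 (limma adjusted p = 0.837, 0.601 and 0.766). In cold acclimated minus NA plants it already differed by -0.97 (limma adjusted p = 0.0215), under the cut of 1.

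In the cellulose list 2 of 13 were named. *CESA9*, a cellulose synthase subunit, rose by 1.2 at 6 h (limma adjusted p = 0.0384), by 1.17 at 12 h (0.0382) and by 1.45 at 24 h (0.012), and differed by -1.21 in cold acclimated minus NA plants (limma adjusted p = 0.035). Its level at 24 h was 7.63, 6.62 and 7.18, against 6.02, 5.42 and 5.64 in the cold. Without any 1 array of 6 h, of 12 h, or replicate 2 or 3 of the cold, the call at that time ended (adjusted p up to 0.125). At 24 h it ended without replicate 2 of the cold or replicate 1 at 24 h (adjusted p up to 0.0579). The call between cold acclimated and NA plants ended without replicate 2 or 3 of the cold or replicate 2 of NA plants, and with only these 2 groups in the fit (adjusted p up to 0.188). *MAN2*, *XYL1* and *CESA9* were all named through the study's table of changed transcripts.

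Across the 3 families, 33 genes besides the chosen 4 had a named probe set. Against cold acclimated plants limma called 0 of 33 at 2 h (4 at an unadjusted p under 0.05), where 4.48% of all analysed probe sets were called. At 4 h 1 of 33 was called (3.03%, beside 5.83% of all), at 6 h 2 (6.06%, beside 7.73%), at 12 h 3 (9.09%, beside 9.17%) and at 24 h 3 (9.09%, beside 8.52%). The shares lay near or under the background at every time. With names from the platform table alone, which do not depend on an earlier call, the counts at 6 h and 24 h were 1 and 2 of 31. Over the 5 times 27 of 33 genes were never called.

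Between cold acclimated and NA plants 2 of 33 were called (6.06%, beside 7.9% of all), *EXPA9* higher and *CSLA03* lower in the cold. Against NA plants 1 of 33 was called at 2 h (*EXLA2*, lower, 3.03%, beside 4.5% of all), 0 at 4 h (3 at an unadjusted p under 0.05, beside 5.08%) and 1 at 6 h (*EXPA11*, higher, 3.03%, beside 6.58%). The call of *EXLA2* at 2 h (limma adjusted p = 0.0489) ended without any 1 array of 2 h, without NA replicate 2 or 3, with only the 2 groups in the fit and with the whole table of probe sets (adjusted p up to 0.185). Of the genes called at 12 h, *EXLA1*, *EXLA3* and *XTH16* are named here after their values were seen. At 12 h 5 of 33 were lower (15.2%, beside 2.65% of all that were called lower), namely *EXLA1*, *EXLA2*, *EXLA3*, *XTH16* and *XTH33*. Each of these calls except that of *EXLA2* ended without replicate 3 of NA plants, and those of *EXLA1*, *XTH16* and *XTH33* also without NA replicate 2 or without replicate 2 or 3 at 12 h (adjusted p up to 0.187). That of *XTH33* further ended without replicate 1 at 12 h and with the whole table of probe sets. With only the 2 groups in the fit the calls of *XTH16* and *XTH33* ended too. At 24 h limma called 0 of 33 against NA plants (5 at an unadjusted p under 0.05), where 0.0447% of all were called. Between successive times 0 of 33 were called, with 12 of 132 values at an unadjusted p under 0.05, beside 0.163% of all between 2 h and 4 h, 0.0479% between 4 h and 6 h, 0.517% between 6 h and 12 h and 2.61% between 12 h and 24 h.

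**Figure D2:**
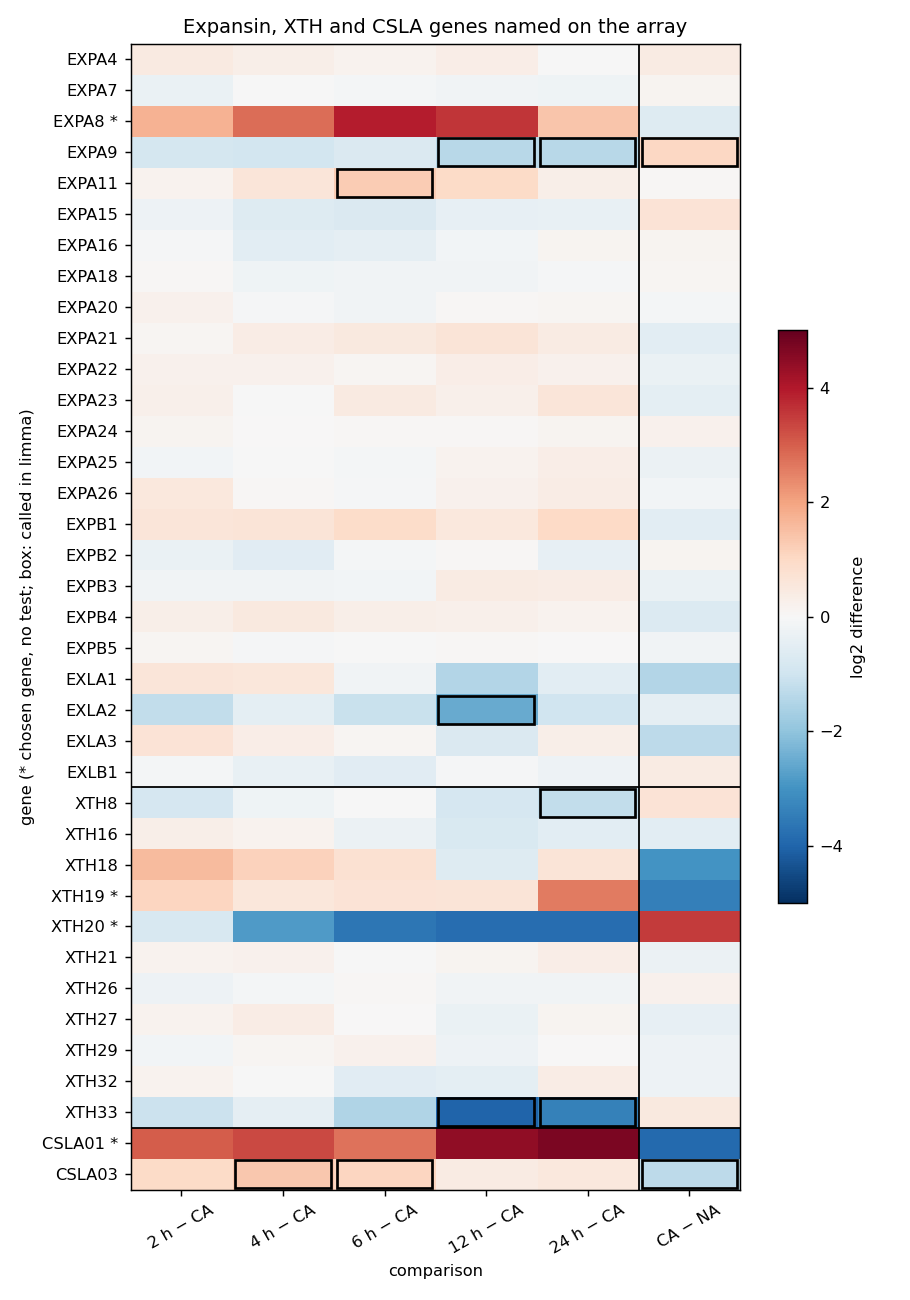
Log2 difference of each expansin, XTH and CSLA gene named on the array (rows, families divided by lines). Columns are each deacclimated time minus cold acclimated plants (CA) and CA minus non-acclimated plants (NA), from group means of 3 arrays. Red is higher and blue lower in the group named first, asterisks mark the 4 chosen genes, which were not tested, and boxes mark calls (limma adjusted p under 0.05 and a difference over 1). Outside the chosen genes, 6 genes carry a box in the first 5 columns.

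Over the 21 arrays the level of *XTH20* ran against that of *CSLA01* (r = -0.68) and, less closely, *EXPA8* (r = -0.48). *XTH19* and *CSLA01*, both lower in the cold than in NA plants, had an r of 0.41, and *EXPA8* had an r of 0.24 with *CSLA01* and of -0.29 with *XTH19*. The 21 arrays share 7 group means, so these values describe the courses and are not independent measurements.

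Some relatives, put together here after their values were seen, shared the lowest replicate in NA plants and the highest replicate at 24 h. How many of the other relatives or of all analysed probe sets shared these 2 features was not counted. Whether they are particular to these genes was therefore not tested. In *XTH18*, *XTH33*, *EXLA1* and *EXLA2*, replicate 1 was the lowest of the 3 NA arrays and replicate 2 the highest at 24 h. *EXLA1* was 8.37, 12.29 and 7.98 at 24 h, against 10.01, 12.30 and 12.31 in NA plants. *EXLA2* was 8.15, 10.15 and 7.49 at 24 h, against 8.80, 10.79 and 10.52 in NA plants. *XTH19*, *CSLA01* and *CSLA03* also had NA replicate 1 lowest and replicate 2 highest at 24 h. *EXPA8* ran the other way at 24 h, where replicate 2 was the lowest.

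**Figure D3:**
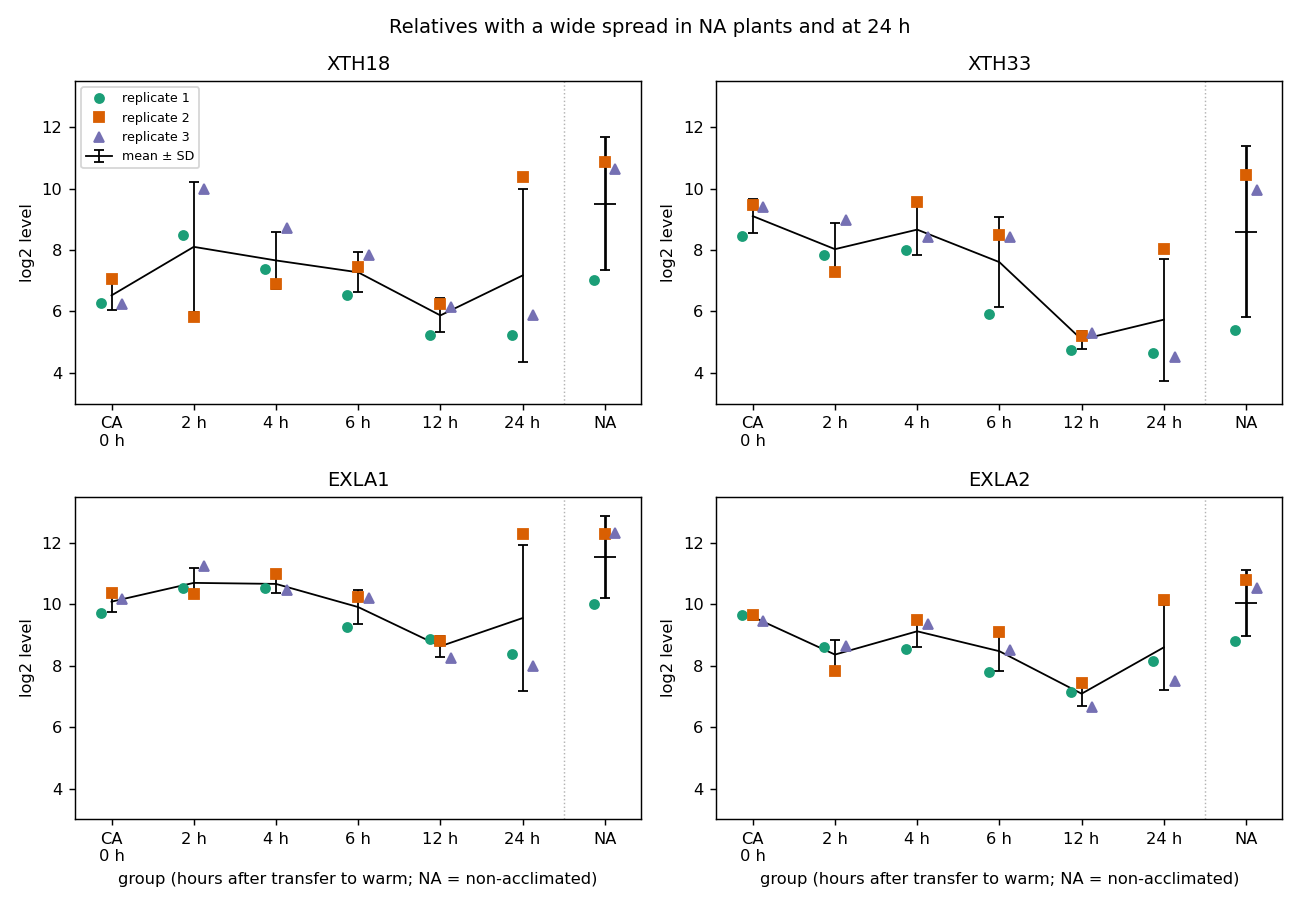
Log2 level of XTH18, XTH33, EXLA1 and EXLA2 on each of 21 arrays. The x axis gives cold acclimated plants (CA, 0 h), the times after transfer to the warm and, right of the dotted line, non-acclimated plants (NA). Symbols are replicates 1 to 3, and lines and bars are group means and SD (n = 3). In each panel replicate 2 is the highest array at 24 h and replicate 1 the lowest in NA plants. These genes were put together after their values were seen.

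The genes whose courses were most like each chosen gene were sought among 3535 single-gene probe sets with group means spanning more than 1. For *EXPA8*, 21 had an r over 0.9, led by AT2G22660 (0.96), AT4G30690 (0.96), *DRT100* (0.94), a leucine-rich repeat gene, and AT2G03310 (0.93). All 4 were highest at 6 h or 12 h and lowest in the cold. AT2G03310 had the widest course of them, with a mean of 10.73 at 6 h, 7.62 in cold acclimated plants and 8.51 in NA plants.

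For *XTH20*, 10 had an r over 0.9, with AT3G28480 (0.92), AT4G38380, AT2G19385 and AT3G55605 (0.91 each) the closest. All were highest in the cold and second highest at 2 h. AT4G38380 had means of 10.14 in cold acclimated plants, 8.50 at 4 h and 7.34 at 12 h. Unlike *XTH20*, none of these 4 genes had a group mean under 7.34.

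For *XTH19* and *CSLA01*, 1 gene each had an r over 0.9. Over the 7 group means the r of the 4 closest genes was 0.96 to 0.98 for *XTH19* and 0.95 to 0.98 for *CSLA01*. For *XTH20* it was 0.94 to 0.99, so the lower counts do not show that these courses are rarer. Closest to *XTH19* were AT4G35110 (0.91), AT4G27280 (0.89), AT5G57785 (0.89) and *TET8* (0.89), a tetraspanin. They were lowest in the cold and had a higher mean at 24 h than at any earlier time. AT4G27280 had means of 11.28 at 24 h, 9.24 in cold acclimated plants and 12.18 in NA plants. For *CSLA01* the closest were AT1G73325 (0.90), AT5G24990 (0.89), AT3G28270 (0.89) and AT1G06640 (0.88). AT1G73325 matched its size as well, with means of 8.44 at 2 h and 10.10 at 24 h, 5.76 in cold acclimated plants and 8.87 in NA plants.

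**Figure D4:**
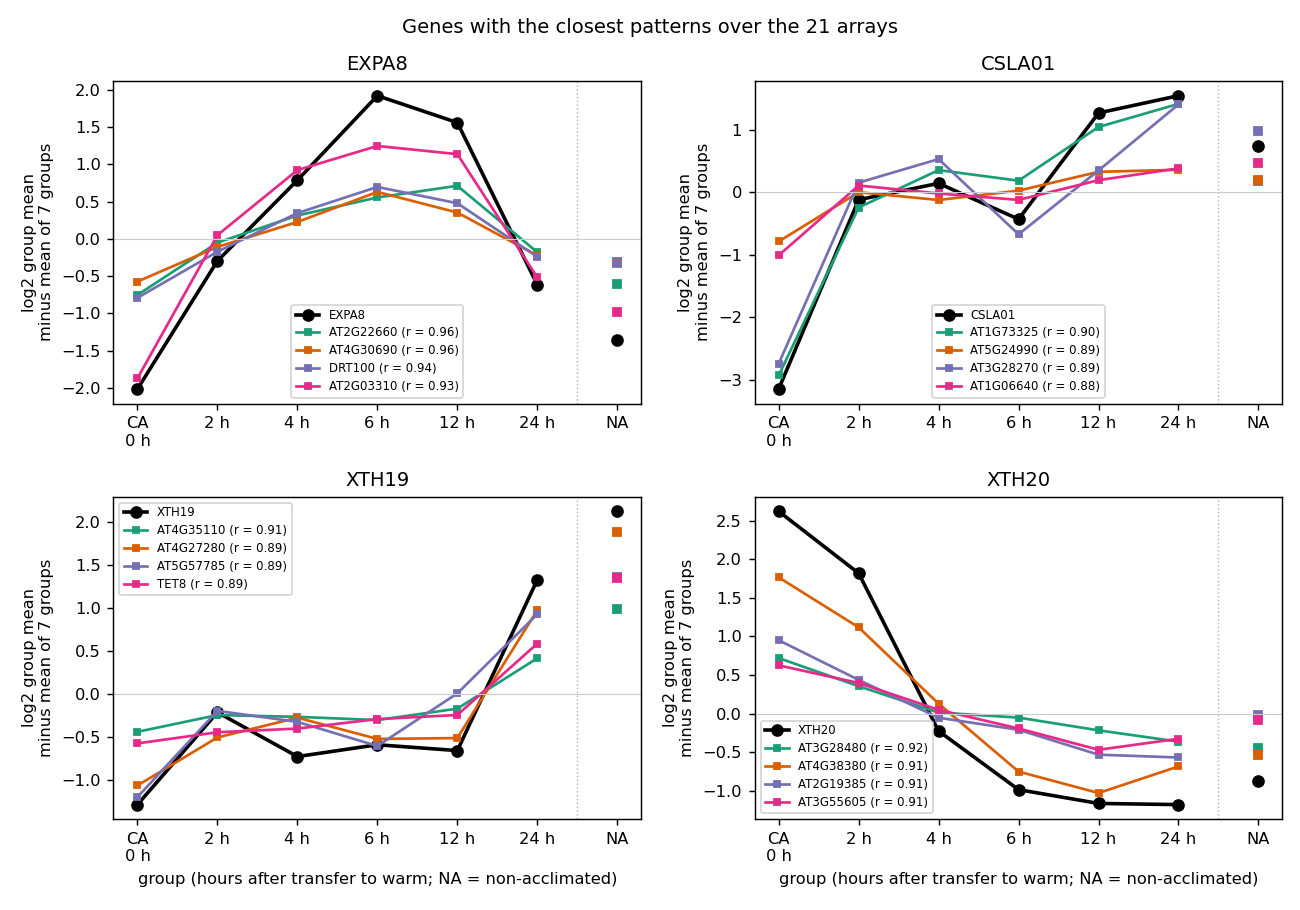
Group means of each chosen gene (black) and of the 4 single-gene probe sets with the highest Pearson r to it over 21 arrays (colours), each minus its own mean over the 7 groups, on the log2 scale. The x axis gives cold acclimated plants (CA, 0 h), the times after transfer to the warm and, right of the dotted line, non-acclimated plants (NA). The closest genes to EXPA8 are highest at 6 h or 12 h, those to XTH20 are highest in CA plants and those to XTH19 and CSLA01 are lowest there.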

How the data were processed

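The authors isolated total RNA from pools of 10 rosettes, hybridized it to Affymetrix Arabidopsis Gene 1.0 ST arrays and normalized the arrays with RMA in RobiNA (version not given in the sources used here). As deposited, each value is the log2 expression of a probe set. RMA equalizes the distributions of the arrays and compresses differences at low levels. The number of arrays, 3 per group, limits the precision.

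Of 38408 probe sets, 7079 at the head of the table, numbered in steps of 2 and without a listed gene, were set apart, leaving 31329. Names came from the platform table (16722 probe sets with 1 gene, 759 with several, not used) and, for 682 further probe sets, from the locus codes in the study's table of changed transcripts. All other probe sets are unnamed here. Gene order is that of RefSeq on TAIR10.1.

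limma 3.58.1 in R 4.3.3 was fitted to the 21 arrays with 7 group means, 14 residual and 2.69 prior degrees of freedom. Calls needed an adjusted p under 0.05 (Benjamini-Hochberg over the 31329 probe sets of a comparison) and a log2 change over 1. The fit was tested on simulated data. The 4 genes and all lists were chosen with earlier results of these data known. Named are the 4 genes, up to 4 called expansin, XTH and CSLA genes per direction and comparison with cold acclimated plants, up to 3 called genes per direction of the mannan, xyloglucan and cellulose lists, and the 4 closest patterns per chosen gene. A gene with several probe sets is represented by the one with the highest mean. The planned comparison of protein sequences within families was not run, as no sequences were used here. Alternatives were other scalings, filters, name tables, sample sets, a replicate block and leaving out each array.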

Additional observations from a re-analysis of the deposited data

How the results depend on the processing

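For the 4 genes, cyclic loess, median centring, the replicate block and leaving out each array of the 2 groups compared gave 540 values over the 15 comparisons. The 180 against cold acclimated plants kept their direction. Of 216 against NA plants 1 turned, *CSLA01* at 12 h without NA replicate 1 (-0.02, from 0.52), and of 144 between successive times 13 turned, all from differences of 0.57 or less in size. All but 7 values moved by less than the replicate SD. These 7 were *XTH19* at 24 h without replicate 2 of that time (1.87 against cold acclimated plants, -1.54 against NA plants, 1.24 against 12 h) and *CSLA01* at 6 h without replicate 2 (3.66 against cold acclimated plants, -0.23 against NA plants, 0.37 against 4 h, and 0.75 for 12 h minus 6 h). Without single arrays *EXPA8* at 6 h stayed between 3.80 and 4.01 above cold acclimated plants, *XTH20* at 24 h between -4.22 and -3.40, *CSLA01* at 24 h between 4.33 and 5.18, and *XTH19* in cold acclimated minus NA plants between -3.70 and -3.24. Median centring moved the median of all analysed probe sets by up to 0.147.

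Over the 44 other genes of the 6 lists there were 13 calls against cold acclimated plants in 5 comparisons, 16 against NA plants in 6 comparisons and 0 between successive times. With the adjusted p alone these were 35, 33 and 1. With platform names alone the first was 7. With only the 2 groups compared in a fit the second was 9. Without single arrays they lay between 9 and 16, between 8 and 26, and at 0. The lowest counts against NA plants, 8, came without NA replicate 2 or 3, and the highest without NA replicate 1 (26) and without replicate 2 at 24 h (25). The cause was not tested.

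Whether same-numbered arrays are pairs was left undecided. The rule used asked that their deviations from the group means correlate above 0.1 for all 3 numbers. It was met in 3 of 15 comparisons (6 h with cold acclimated plants, cold acclimated with NA plants, 12 h with 6 h), so the main fit had no pairing. Yet 19 of 21 arrays correlated best with their own number, so a shared part by number is not excluded. With the replicate number as a block the counts were 14, 18 and 0, and no call named in the text was lost.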
